A study of Mus musculus with 18 samples.

Results

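The genes examined here encode the proteins of the cytosolic ribosome. They were the protein-coding entries of the deposited count table whose symbols begin with Rpl or Rps and a digit, together with Rplp0, Rplp1, Rplp2 and Rpsa. The kinase genes named Rps6k and the binding protein gene Rps19bp1 were left out. The rule uses names only and found 91 of 40481 gene IDs. Of these, 89 passed the filter on low counts, as did 16575 genes in all, and Rpl10l and Rpl36-ps4 did not. The large subunit accounted for 55 of the tested genes and the small subunit for 34.

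The cells were neutrophils from the lungs of C57BL/6 mice, obtained by flow sorting of live cells positive for CD45, CD11b and Ly6G and for the presence or absence of CD101, which appears on the surface as neutrophils mature. Wild-type (WT) mice were compared with Cybb knockout mice. Cybb codes for gp91phox, the subunit of the oxidase through which phagocytes make superoxide, and mice without it model chronic granulomatous disease (CGD). The 6 groups of 3 libraries were WT and CGD naive cells, and WT and CGD cells taken 24 hours after intranasal zymosan (20 µg, a yeast cell wall preparation) and sorted as CD101pos or CD101neg. Naive cells were CD101pos cells of untreated males aged 12 weeks and zymosan cells came from females aged 13 weeks, so the effect of zymosan cannot be told apart from sex and age, and no naive CD101neg group was analysed. The labels do not say whether replicates were separate animals, and the p-values therefore reflect a spread among samples that may be technical.

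A ribosome joins a large and a small subunit, each built on ribosomal RNA from single copies of most of its proteins. The messenger RNAs of these proteins begin with a C followed by a run of pyrimidines, the 5′ terminal oligopyrimidine tract, through which growth signalling by mTOR controls their translation together. Neutrophils form their ribosomes largely in the bone marrow, while they are still dividing precursors, and mature cells carry few ribosomes.

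The tract was looked for at the annotated transcription start. RefSeq promoters (GRCm38.p6) matched 65 of the 91 genes by symbol. At a start itself, 14 of them (21.5%) had a C followed by 4 or more bases that were each C or T, against 3.01% of the 27025 genes with a promoter entry. Within 10 bases of the start 40 (61.5%) had one, against 34.4%. Windows of 30 bases, 10 before and 20 from the start on, are shown for the members with such a start that passed the test below (Rpl14, Rps15a, Rps18), for Rps6 and Rplp2 as members with the tract that did not, and for Rps27 and its near-copy Rps27rt, whose reads are hard to separate. Capitals mark the pyrimidine run that begins at the annotated start.
Rpl14 (chr9:120571507-120571536, + strand): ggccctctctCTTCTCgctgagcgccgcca
Rps15a (chr7:118116128-118116157, - strand): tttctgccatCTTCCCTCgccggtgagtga
Rps18 (chr17:33955646-33955675, - strand): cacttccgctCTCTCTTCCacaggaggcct
Rps6 (chr4:86857348-86857377, - strand): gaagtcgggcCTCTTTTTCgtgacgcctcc
Rplp2 (chr7:141447641-141447670, + strand): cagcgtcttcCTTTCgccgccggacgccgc
Rps27 (chr3:90213629-90213658, - strand): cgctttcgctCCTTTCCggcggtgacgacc
Rps27rt (chr9:114982720-114982749, - strand): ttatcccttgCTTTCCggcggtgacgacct
The run is 6 bases long in Rpl14, 8 in Rps15a, 9 in Rps18 and Rps6, 5 in Rplp2, 7 in Rps27 and 6 in Rps27rt. The windows of Rps27 and Rps27rt share an unbroken run of 19 bases although the genes lie on different chromosomes.

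In the 300 bases around the start (250 before and 50 after), searched on both strands, the core CCGGAAG bound by ETS family factors was present in 26 of 65 members (40% against 9.93% of all genes). The YY1 core AAGATGGC was present in 6 members (9.23% against 3.19%). The E-box CACGTG, the site of MYC and its partners, was found in 6 (9.23% against 8.09%) and the TATA box TATAAA in 7 (10.8% against 15.7%). These matches describe the letters only.

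Libraries held 33.7 to 67.9 M counts, with the fewest in the WT naive replicate 3, and members drew 352520 to 970853 counts per library. Cybb was lower in CGD than in WT in every sort (45.0 CPM at the median of CGD CD101neg libraries against 261 in WT CD101neg). Cd101 was lower in CD101neg than in CD101pos libraries of either genotype (159 against 436 CPM at the median in WT, 54.1 against 106 in CGD). Neutrophil genes were abundant in every group (S100a8 at 7416 CPM or more, Csf3r at 1551 or more), but Ly6g, the sorting marker, had only 6.78 to 230 CPM. CPM is a gene's count relative to the library total, scaled here by trimmed mean of M values (TMM) factors, which were 0.702 to 0.809 in CGD CD101neg libraries and 0.867 to 1.24 in those of WT groups.

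The share of all reads that fell in the 91 genes was largest in naive cells and smallest in CGD CD101neg cells. It was 1.75%, 1.78% and 1.72% in the WT naive libraries and 1.66%, 1.80% and 1.43% in the CGD naive libraries. After zymosan, CD101pos libraries gave 1.34%, 1.19% and 1.08% in WT and 1.13%, 0.984% and 0.911% in CGD. CD101neg libraries gave 1.33%, 1.24% and 1.23% in WT and 0.788%, 0.654% and 0.647% in CGD. All zymosan libraries lay below all naive ones, and the CGD CD101neg libraries lay below all others. In bulk samples, fewer cells of a type and less RNA per cell cannot be told apart.

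**Figure D1:**
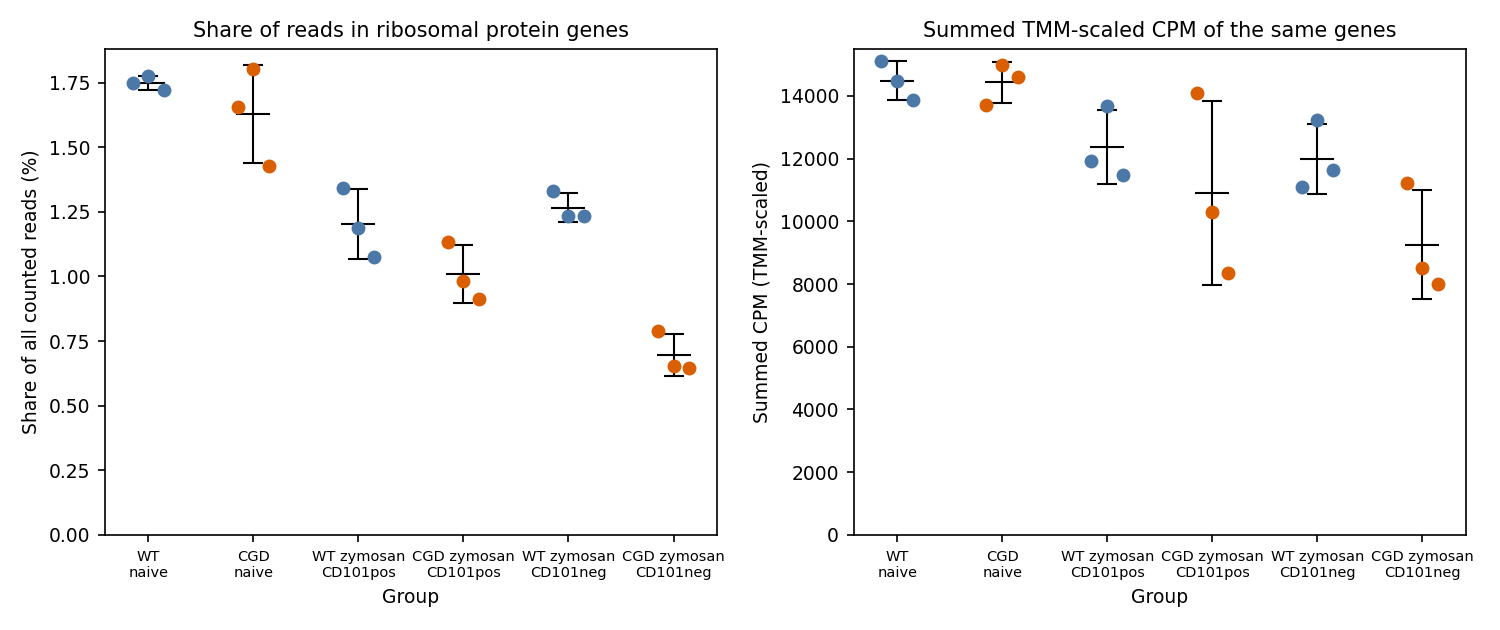
Share of all counted reads (left, %) and summed TMM-scaled CPM (right) of the 91 ribosomal protein genes, 1 point per library, by group on the x axis (WT blue, CGD orange); bars are the mean and SD of 3 libraries. CGD CD101neg libraries are lowest in share (0.647% to 0.788%), while on the TMM scale their sums (7998 to 11233) overlap those of CGD CD101pos libraries (8341 to 14093).

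The TMM factors narrowed this difference. Summed TMM-scaled CPM of the members was 13715 to 15108 in naive libraries, 11093 to 13247 in WT CD101neg and 11233, 8521 and 7998 in CGD CD101neg libraries, so that the first CGD library lay within the WT range. The 10 most abundant genes of each library took 25.0% to 26.9% of reads in CGD CD101neg cells and 19.9% to 21.1% in WT CD101neg cells. Outside those 10 genes the members' share was 0.862% to 1.08% in CGD and 1.54% to 1.68% in WT. A ratio within a library needs no scaling. Members had 14.0, 9.47 and 9.25 reads for each read of the mitochondrial ribosomal protein genes in CGD CD101neg libraries and 12.3, 17.0 and 13.7 in WT CD101neg libraries, and these ranges overlapped. For each read of the translation initiation factors they had 1.65, 1.32 and 1.31 in CGD and 2.24, 2.66 and 2.02 in WT, which did not overlap. The initiation factors themselves summed to 6121.5 to 6803 TMM-scaled CPM in CGD and 4950 to 5766.5 in WT CD101neg libraries. That ratio therefore holds a difference of its denominator as well as of the members.

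Levels differed widely among the members. Per kilobase of exon in GENCODE M21, a reference whose match to the authors' annotation is not known, Rps9 had 501 CPM, Rps27 485, Rps3a1 300 and Rps29 292 as means of all 18 libraries, with a median of 51.9 over the 89 tested genes. By mean log2 CPM the most abundant included Rps9, Rps27, Rps14 and Rplp0. The least abundant of those tested were Rpl39l, Rpl9-ps1, Rpl36a-ps1, Rpl24 and Rps12-ps3. Rpl24 is the exception among them, since it is no copy and encodes a conserved large subunit protein, yet it had 0.754 to 1.67 CPM. In M21 it shares 484 exon bases on the same strand with Gm28037, and 81.7% of the 50-base stretches of its longest coding transcript also occur in transcripts of other genes.

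Rps9, a small subunit protein, held 6.22% to 14.8% of the members' reads and varied widely between the replicates of a zymosan group. Its level was 1565, 1465 and 1320 CPM in WT naive and 1507, 1315 and 1774 CPM in CGD naive libraries. In WT it was 1048, 2031 and 1290 CPM in CD101pos and 690, 1699 and 878 CPM in CD101neg libraries. In CGD it was 1577, 1056 and 708 CPM in CD101pos and 1393, 811 and 593 CPM in CD101neg libraries. The zymosan groups overlapped, while the libraries of the 2 sorts that carry the same number ran in parallel. Without Rps9, large subunit genes had 1.21 to 1.41 reads per small subunit read over the 18 libraries.

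The genotypes were compared first in naive cells, to ask whether the oxidase affects these transcripts before challenge. Members had like levels in both. Rplp0, the central protein of the stalk that recruits elongation factors, had 411, 387 and 344 CPM in WT and 356, 443 and 427 CPM in CGD. Rps6, the small subunit protein phosphorylated by S6 kinase, had 227, 207 and 182 CPM in WT and 205, 227 and 225 CPM in CGD. Of the 89 members, 0 passed an adjusted p of 0.05 in edgeR's quasi-likelihood test, 0 had an unadjusted p under 0.05, and DESeq2 also called 0. Among all genes 0.127% were called. The median log2 fold change of the members was -0.01, and single members ranged from -0.57 (Rpl36a-ps1) to 0.26 (Rpl36al).

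In CD101pos cells after zymosan the genotypes were compared again, and no member was called. Beside the 0 calls of edgeR, 2 members had an unadjusted p under 0.05 and DESeq2 called 0, while 5.30% of all genes were called. The median was -0.11, against 0.02 for all genes. It was -0.33 without the first CGD CD101pos library, when 33 members had an unadjusted p under 0.05, and 0.03 without the third. Rpl3, a core protein near the peptidyl transferase centre, was among the members above 0: it had 169, 108 and 133 CPM in WT and 194, 189 and 185 CPM in CGD, with no overlap (log2 0.47 ± 0.18 SE, edgeR adjusted p = 0.15). Without the first CGD CD101pos library 1 member was called lower, where 1.84% of all genes fell. Without the first WT CD101pos library 2 were called higher, where 570 genes in all rose.

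In CD101neg cells after zymosan a minority of the ribosomal protein genes were called lower in CGD than in WT. Of the 89 members, 15 fell and 0 rose in edgeR's quasi-likelihood test, and 74 did not pass, where 6.24% of all genes fell and 6.67% rose. Of all members, 82 had a log2 fold change below 0, with a median of -0.40, while all tested genes had a median of -0.08. In 42 members all 3 CGD libraries lay below all 3 WT libraries, as was the case for 15.3% of all genes. All 34 small subunit genes were below 0 (median -0.43, 7 called), as were 48 of 55 large subunit genes (median -0.39, 8 called).

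Rpl5 is part of the 5S ribonucleoprotein particle, which also restrains MDM2 when ribosome assembly fails. It had 70.5, 58.8 and 69.4 CPM in WT and 41.3, 39.3 and 37.9 CPM in CGD CD101neg libraries. The groups were well apart, with a log2 fold change of -0.75 ± 0.16 (SE, edgeR adjusted p = 0.0053). Rpl11, its partner in that particle, had 89.4, 105 and 92.2 CPM in WT and 74.1, 63.8 and 59.4 CPM in CGD, also without overlap, but it was not called (log2 -0.54 ± 0.18, edgeR adjusted p = 0.060).

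Among small subunit proteins, Rps18 had the largest decrease of the called members. It lies in the head of the subunit and had 128, 96.4 and 111 CPM in WT and 69.2, 59.4 and 61.3 CPM in CGD, a log2 fold change of -0.82 ± 0.19 (edgeR adjusted p = 0.0095). Rps19, whose human counterpart is the gene most often mutated in Diamond-Blackfan anaemia, had 271, 214 and 250 CPM in WT and 165, 152 and 167 CPM in CGD (log2 -0.60 ± 0.19, edgeR adjusted p = 0.048). Rpsa, the laminin receptor protein of the small subunit, had 154, 172 and 158 CPM in WT and 135, 92.7 and 88.3 CPM in CGD (log2 -0.62 ± 0.19, edgeR adjusted p = 0.037). In all these genes every CGD library lay below every WT library. Rps4x, the X-linked small subunit protein, was the called member whose groups overlapped, with 79.6, 110 and 72.6 CPM in WT and 75.9, 43.2 and 38.4 CPM in CGD (log2 -0.74 ± 0.24, edgeR adjusted p = 0.046).

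Of the large subunit proteins, Rpl13 had 249, 261 and 280 CPM in WT and 171, 147 and 162 CPM in CGD (log2 -0.72 ± 0.16, edgeR adjusted p = 0.0065). Rpl32 had 215, 187 and 199.8 CPM in WT and 132, 106 and 119 CPM in CGD (log2 -0.75 ± 0.17, edgeR adjusted p = 0.0084). Both were lower in every CGD library. The other called members included Rpl36a, Rps20, Rpl14, Rpl10a, Rps15a, Rpl3 and Rpl22, with log2 fold changes between -0.72 (Rpl10a) and -0.50 (Rpl22).

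The stalk proteins and Rps6 were not called. The stalk protein Rplp0 had 363, 450 and 381 CPM in WT and 375, 279 and 257 CPM in CGD, which overlapped (log2 -0.39 ± 0.20). Its partners Rplp1 and Rplp2 had log2 fold changes of -0.35 ± 0.19 and -0.35 ± 0.20, and neither overlapped. Rps6 had 165, 196 and 166 CPM in WT and 145, 119 and 104 CPM in CGD, without overlap (log2 -0.52 ± 0.20, edgeR adjusted p = 0.099). At the other end, Rpl10 and Rpl24 were the members other than copies that lay above 0. Rpl10, which completes the large subunit late in assembly, had 250.5, 204 and 229 CPM in WT and 268.7, 282 and 250.4 CPM in CGD (log2 0.23 ± 0.17, edgeR adjusted p = 0.42).

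**Figure D2:**
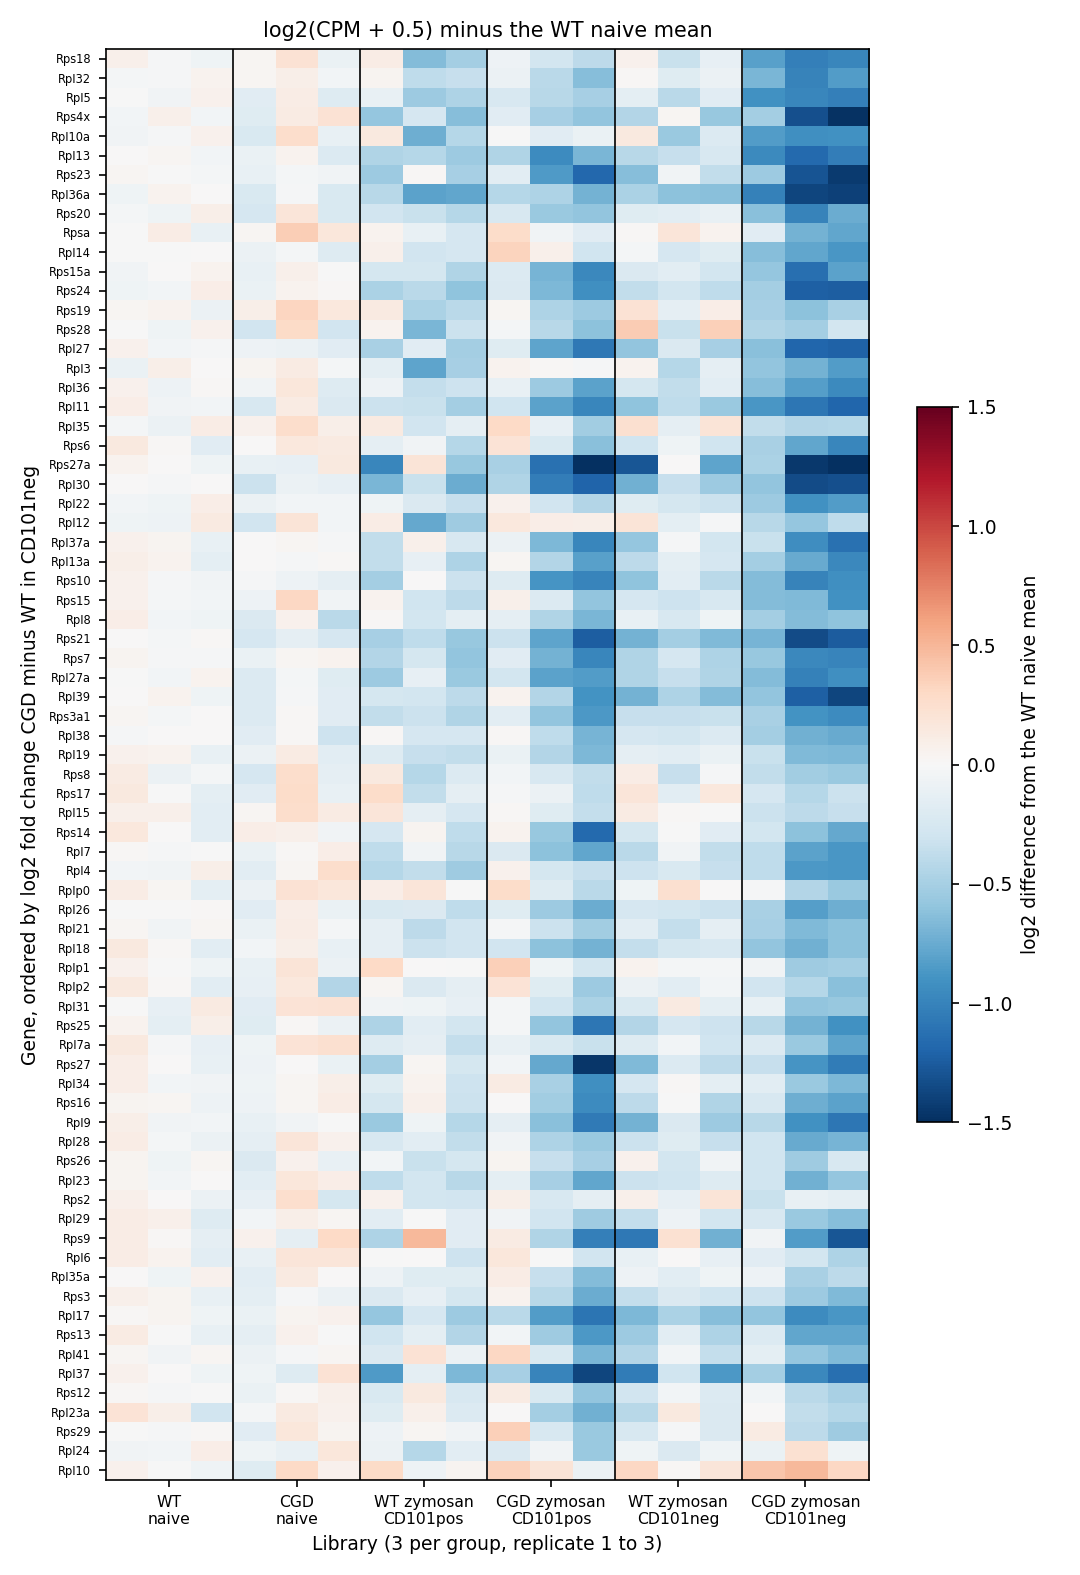
Level of 74 tested ribosomal protein genes that are no copies (rows, ordered by log2 fold change of CGD minus WT in CD101neg cells) in each of 18 libraries (columns, by group), as log2(CPM + 0.5) minus the WT naive mean; colours end at 1.5 on either side. The CGD CD101neg columns are lowest for most rows, with the first library nearer to WT than the other 2, and Rpl10 at the bottom is above the WT naive mean in all 3.

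Calls were also counted by the annotated start. Of the 14 members with a tract at the annotated start, 3 were called (Rpl14, Rps15a and Rps18, printed above), with a median log2 fold change of -0.43. Of the 50 tested members with another annotated start, 8 were called, with a median of -0.39. The 25 without a window had 4 calls and a median of -0.41. No difference between these sets was tested. The sets follow the annotated start only, and a member with another start may still have the tract. Within 10 bases of the start 40 of 65 members had a match.

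The number of calls in CD101neg cells depended on single libraries and on the fit. It was 24 without the first CGD CD101neg library, 3 without the second and 6 without the third. Of all genes 5.148%, 2.71% and 3.945% fell in these fits. The 3 of 89 members called without the second were thus little above the share of all genes. It was 6 without the first and 6 without the third WT CD101neg library, where 3.804% and 4.173% of all genes fell. A fit of only the 6 libraries compared called 0 of 88 members, where 2.85% of all genes fell. In that fit 23 members had an unadjusted p under 0.05. DESeq2 called 18, where 8.446% of all genes fell. RLE size factors gave 9 (5.768% of all genes), and protein-coding genes alone gave 8 (6.365% of the genes tested). Without WT CD101neg replicate 2 it was 11 (5.265% of all genes). Scaling by library size alone called 75 members lower, where 21.55% of all genes fell. It also moved the median of all genes to -0.57 and the higher share of all called genes from 51.7% to 10.4%. The members' median minus that of all genes was -0.33 (log2) on that scale and -0.32 under TMM.

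**Figure D3:**
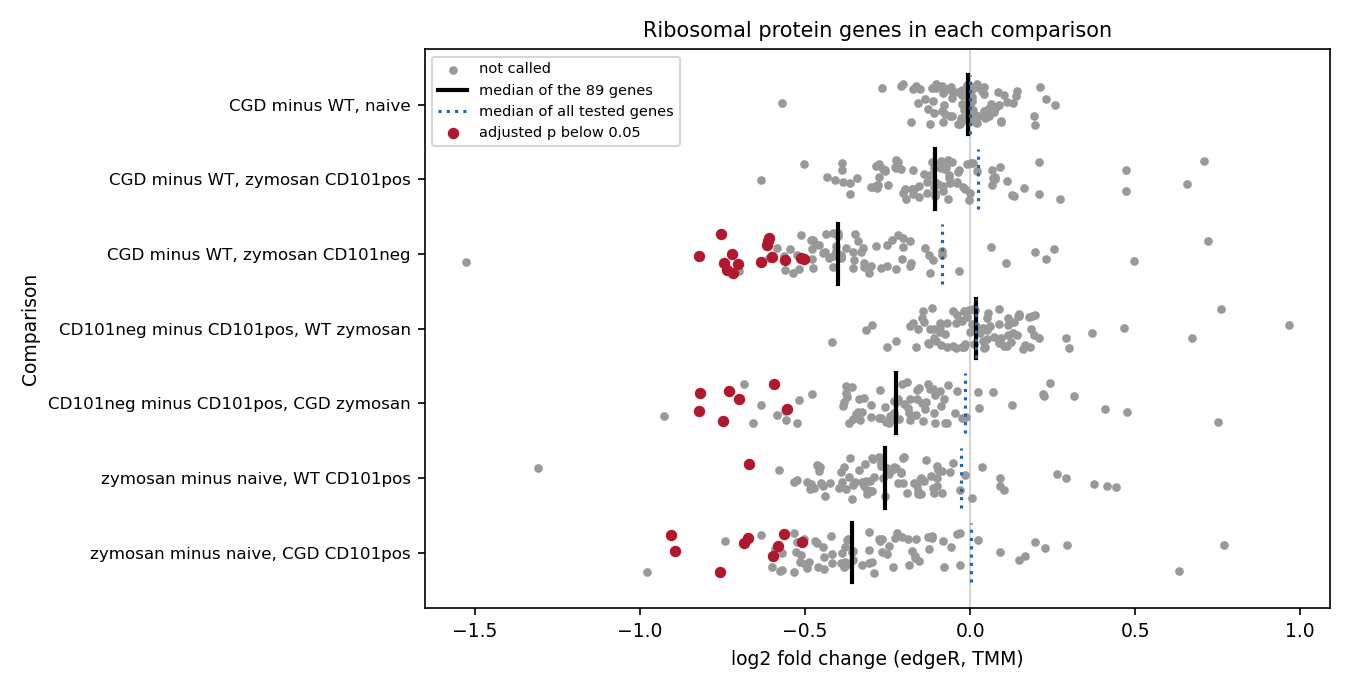
log2 fold change (edgeR, TMM) of the 89 tested ribosomal protein genes, 1 point per gene, in the 7 pairwise comparisons (rows); red points passed an adjusted p of 0.05, black bars are the median of the 89 genes and dotted blue bars the median of all tested genes. The members' medians lie at -0.01 in naive cells and at -0.40 in CD101neg cells of CGD against WT, and the red points are all below 0.

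Between the subsets of one genotype, the question was whether immature-labelled CD101neg cells carry other levels of these transcripts than CD101pos cells. In WT they had like levels. In edgeR 0 members were called, 0 had an unadjusted p under 0.05 and DESeq2 called 0, while 0.440% of all genes were called. The median log2 fold change was 0.02, equal to that of all genes. With the replicate number as a block, under which libraries of the same title number are paired, 1 member was called lower, namely Rps9 (log2 -0.48 ± 0.12, edgeR adjusted p = 0.016), where 5.98% of all genes fell. In each of the 3 pairs of Rps9 values given above the CD101neg library had the lower one.

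In CGD 7 members were lower in CD101neg than in CD101pos cells and 0 were higher, where 4.08% of all genes fell and 3.27% rose. The median of the 89 was -0.22 (all genes -0.02), with 78 below 0, and 15 members were lower in all 3 CD101neg libraries, against 14.4% of all genes. Rpl14, a large subunit protein with the tract shown above, had 224, 188 and 146 CPM in CD101pos and 115, 103 and 97.5 CPM in CD101neg libraries (log2 -0.82 ± 0.17, edgeR adjusted p = 0.0098). Rpl3 had 194, 189 and 185 CPM in CD101pos and 124, 114 and 104 CPM in CD101neg libraries (log2 -0.73 ± 0.18, edgeR adjusted p = 0.021). Neither overlapped. Rpl36a, Rpl10a, Rpl5, Rps18 and Rpl22 were the others, with log2 fold changes from -0.82 (Rpl10a) to -0.55 (Rpl22). All 7 were also among the 15 called between genotypes in CD101neg cells (46.7% of those 15), and both comparisons share the CGD CD101neg libraries.

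These 7 calls and the median also rested on single libraries. Without the first CGD CD101pos library the median was -0.08 (members minus all genes -0.04, 54 below 0), without the third it was -0.36, and without the first CGD CD101neg library it was -0.41. Without the second or without the third CGD CD101neg library 0 were called, and 12 without the first, where 1.16%, 1.41% and 3.99% of all genes fell. There were 3 without the first, 1 without the second and 4 without the third CGD CD101pos library, where 3.84%, 1.59% and 1.45% of all genes fell. Library size alone called 36, where 7.02% of all genes fell. It moved the median of all genes to -0.34 (members minus all genes -0.18) and the higher share of called genes from 44.5% to 6.59%. With the replicate number as a block by title, 22 members were called lower and 1 higher, where 13.1% of all genes fell and 1855 genes rose. That fit pairs the CGD libraries, which did not meet the criterion for pairs.

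The interaction, which asks whether the subset difference of CGD differs from that of WT, called 0 members in edgeR, where 0.851% of all genes were called. An unadjusted p under 0.05 was found in 15. DESeq2 called 4 lower (Rpl3, Rpl5, Rpl14 and Rpl36a), where it called 2.36% of all genes lower. Rpl3 had the lowest adjusted p, 0.063, with an interaction of -1.03 ± 0.25 (SE, log2). Its level was lower in CD101neg cells of CGD in all libraries, whereas in WT it was 169, 108 and 133 CPM in CD101pos and 194, 139 and 171 CPM in CD101neg libraries, which overlapped. Without the first WT CD101pos library 7 members were called lower, where 2.37% of all genes fell. Without the second WT CD101neg library it was 1 (0.93% of all genes), and without the first CGD CD101neg library 2 (0.78%). With the replicate number as a block by title, 12 members were called lower, where 8.16% of all genes fell, among them Rpl3 (-1.06 ± 0.17, edgeR adjusted p = 0.00055). That fit pairs the libraries of both genotypes by title number, although those of CGD did not meet the criterion for pairs.

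Zymosan CD101pos cells were compared with naive cells of the same genotype, a comparison that cannot be told apart from sex and age. In WT, Rpl36a was called lower and no member higher, where 0.875% of all genes fell and 2.92% rose. Rpl36a had 30.7, 33.4 and 32.1 CPM in naive and 23.9, 18.1 and 18.4 CPM in zymosan libraries (log2 -0.67 ± 0.17, edgeR adjusted p = 0.028). The median of the members was -0.26 (all genes -0.03), with 79 below 0, and 40 members were lower in all 3 zymosan libraries, against 12.0% of all genes. The call was lost without any 1 of the 3 WT naive libraries or without the second or the third WT CD101pos library, and also in a fit of these 6 libraries alone and without the low-count filter. DESeq2 called 2, where 2.13% of all genes fell, and library size alone 30, where 3.72% fell. Library size alone put the median of all genes at -0.33 (members minus all genes -0.24) and the higher share of called genes at 29.97% in place of 76.9%.

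In CGD 9 members fell and 0 rose, where 5.71% of all genes fell and 7.13% rose. The median was -0.36, against 0.00 for all genes, 80 were below 0, and 30 were lower in all 3 zymosan libraries, against 15.8% of all genes. Rpl37 had 334, 305 and 408 CPM in naive and 248, 176 and 134 CPM in zymosan libraries (log2 -0.91 ± 0.26, edgeR adjusted p = 0.025). Rpl17 had 138, 153 and 155 CPM in naive and 112, 82.3 and 69.0 CPM in zymosan libraries (log2 -0.76 ± 0.18, edgeR adjusted p = 0.0090). Both are large subunit proteins, and neither overlapped. The others included Rpl13, Rpl18, Rps15a, Rpl11 and Rpl30, between -0.69 (Rpl30) and -0.51 (Rpl18).

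Rpl13 and Rps15a were called both here and between genotypes in CD101neg cells (22.2% of these 9 and 13.3% of those 15), and the comparisons share no library. Of all 89 tested members 9 were called here and 15 there, and whether the overlap exceeds that of unrelated lists was not tested. In WT, Rpl37 had a log2 fold change of -0.52 ± 0.26 and Rpl17 of -0.45 ± 0.18, the same direction, and neither was called. The interaction of genotype and zymosan called 0 members in edgeR, 0 at an unadjusted p under 0.05 and 0 in DESeq2, where 0.320% of all genes were called. The median of -0.36 became -0.51 without the first CGD CD101pos library and -0.22 without the third. The count of 9 became 37 without the first CGD CD101pos library, 0 without the second and 1 without the third, where 5.06%, 2.62% and 3.575% of all genes fell. It was 3 without the first, 3 without the second and 5 without the third CGD naive library, where 3.45%, 4.12% and 4.26% fell. A fit of these 6 libraries alone gave 4 (5.88% of all genes) and library size alone 55 (12.19%). Library size alone put the median of all genes at -0.24 (members minus all genes -0.38) and the higher share of called genes at 26.5% in place of 55.5%.

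The libraries numbered 1 stood above their group in the CGD zymosan groups, but not in CGD naive cells, where the first library was the highest for 6 of 89 members and the lowest for 57. In CD101pos cells of CGD the first library was the highest of the 3 for 84 of 89 members and the third the lowest for 83. In CD101neg cells of CGD the first was the highest for 74. By library size alone the first was still the highest for 62 and 58. In WT the same counts for the first library were 43 in CD101pos and 26 in CD101neg cells under TMM. By library size alone they were 76 and 68, so on that scale the first library was mostly highest in WT too. The number in the labels has no stated meaning.

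Members named as copies of another member were tested with the rest. The 12 tested copies had 0 calls in each of the 7 pairwise comparisons, and in CD101neg cells their genotype median was -0.06, against -0.42 for the other 77. Rpl3l had the highest value of them (0.72 ± 0.28, edgeR adjusted p = 0.10). Rpl39l, which is enriched in testis, had at most 0.253 CPM, and the testis gene Rpl10l at most 0.0641 CPM. Because a ratio of read counts within a library does not depend on scaling, each copy with enough reads was set against the member it copies.

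Rpl22 binds RNA and is required for T cell development, and Rpl22l1 is its near relative. In WT CD101neg libraries Rpl22 had 1.96, 2.05 and 1.88 reads for each read of Rpl22l1, and in CGD CD101neg libraries 1.17, 1.37 and 1.51. The ratio in CGD CD101pos libraries was 1.99, 1.87 and 2.09. CGD CD101neg libraries were thus below both of these zymosan groups without overlap, where Rpl22l1 itself had a genotype log2 fold change of 0.06 ± 0.20. Naive libraries had 1.55, 1.60 and 1.71 in WT and 1.79, 1.68 and 1.27 in CGD, and the CGD naive range overlapped that of CGD CD101neg libraries. For Rpl3 over Rpl3l, the relative known from muscle, the ratio was 59.7, 37.5 and 37.4 in WT and 17.6, 19.1 and 17.4 in CGD CD101neg libraries, also without overlap. Rpl3l had 3.24 to 8.13 CPM over all libraries.

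Rpl36a over Rpl36al, a close relative, gave 2.05, 2.14 and 2.08 in WT naive and 0.795, 1.62 and 1.01 in WT CD101pos libraries after zymosan. In CGD it gave 1.83, 1.28 and 1.78 in naive and 1.13, 1.01 and 0.949 in CD101pos libraries. In each genotype all zymosan CD101pos libraries lay below the naive ones. Rps27 over Rps27l, a relative induced by p53, gave 23.2, 24.4 and 30.6 in CGD naive and 17.8, 12.6 and 9.88 in CGD CD101pos libraries, again without overlap. In WT the ranges of Rps27 over Rps27l overlapped. Rpl7 over Rpl7l1 was 6.16, 5.61 and 8.95 in CGD naive and 4.67, 3.67 and 3.71 in CGD CD101pos libraries, without overlap.

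Near-identical pairs were compared as well. Rps27 over Rps27rt lay between 7.61 and 12.8, Rpl10 over Rpl10-ps3 between 11.6 and 17.4, and Rpl9 over Rpl9-ps6 between 3.96 and 6.41 in all libraries. For Rpl9 the CGD CD101pos libraries, at 5.26, 5.43 and 6.41, lay above the CGD naive libraries (4.35, 5.07 and 4.71) and the WT CD101pos libraries (4.28, 4.68 and 4.71). Reads of these pairs may be split between the genes, since 91.1% of the 50-base stretches of Rps27rt also occur in Rps27 and 96.1% of those of Rpl10-ps3 in Rpl10. In all, 8 pairs in 7 comparisons gave 56 exact permutation tests (two-sided), whose smallest possible p with 3 libraries against 3 is 0.1. The lowest adjusted p was 0.373, so none could pass.

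**Figure D4:**
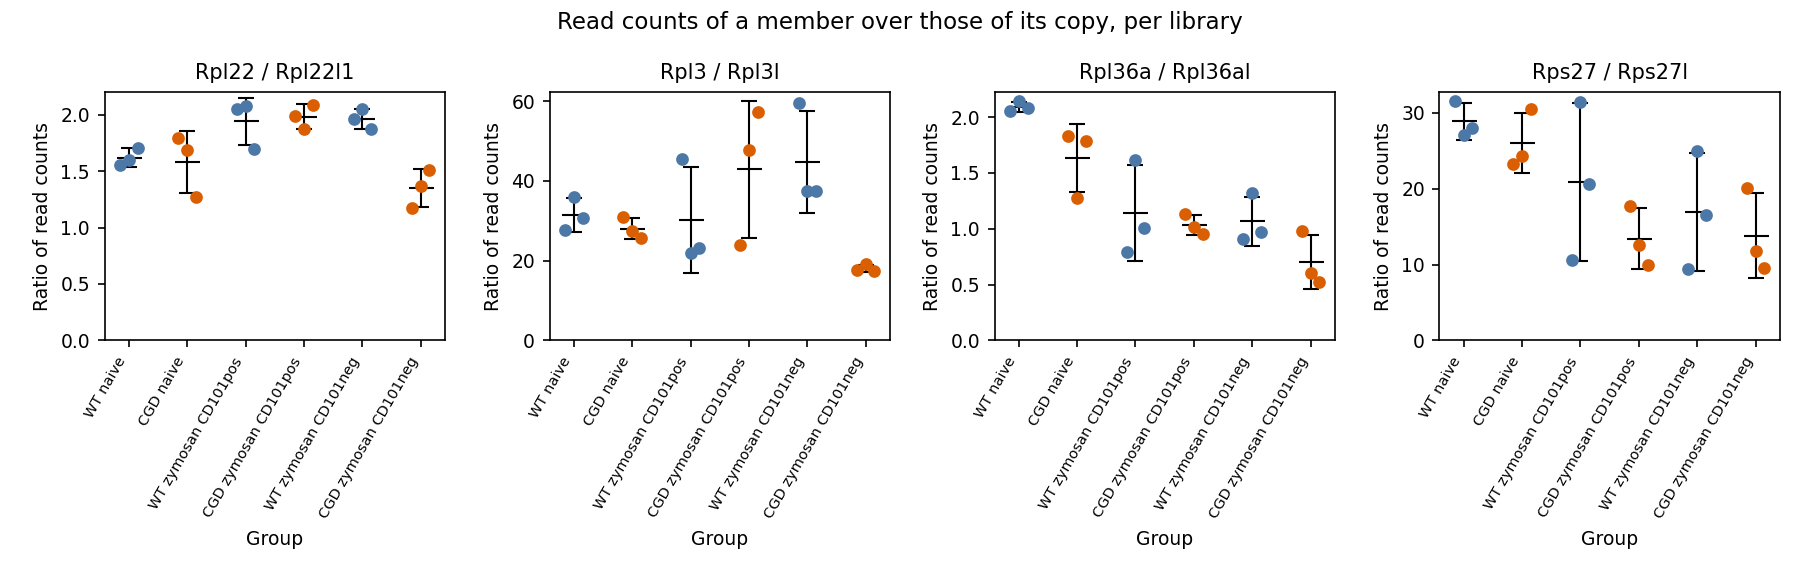
Read counts of a member divided by those of its copy, 1 point per library (WT blue, CGD orange), by group on the x axis; bars are the mean and SD of 3 libraries. Rpl22 over Rpl22l1 and Rpl3 over Rpl3l have their lowest means in CGD CD101neg libraries (1.17 to 1.51 and 17.4 to 19.1), and Rpl36a over Rpl36al is highest in WT naive libraries (2.05 to 2.14).

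The other genes of translation and ribosome formation were counted in the same tests of CD101neg cells, CGD against WT, where 6.24% of all genes fell and 6.67% rose. Of 7 partners of the ribosome encoded as fusions or scaffolds, 2 fell and 0 rose: Rack1, the scaffold on the small subunit (log2 -0.51 ± 0.16, edgeR adjusted p = 0.037), and Naca, which guards the exit of the nascent chain (-0.52 ± 0.17, edgeR adjusted p = 0.047). Of 29 initiation factors 1 fell, Eif3e (-1.001 ± 0.19, edgeR adjusted p = 0.0021), and of 7 elongation factors 1 rose, Eif5a (1.32 ± 0.23, edgeR adjusted p = 0.0011). Of 35 nucleolar biogenesis factors 1 fell (Nob1, -1.14 ± 0.33) and 0 rose. Of 14 genes of RNA polymerase I 1 fell (Twistnb, -0.69 ± 0.19). Of 18 genes of growth signalling to ribosome synthesis 1 rose (Larp4b, 1.61 ± 0.22) and 1 fell (Eif4ebp2, -1.12 ± 0.29). Of 7 noncoding hosts of snoRNAs with such tracts 0 were called (Snhg5, 0.63 ± 0.26). Of 76 mitochondrial ribosomal protein genes 4 fell and 1 rose.

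In the zymosan comparison of CGD, 3 of the 35 biogenesis factors rose and 0 fell: Gnl3 (1.47 ± 0.37, edgeR adjusted p = 0.013), Wdr12 (1.51 ± 0.41, edgeR adjusted p = 0.019) and Nop58 (1.23 ± 0.35, edgeR adjusted p = 0.025). These are nucleolar proteins, and 7.13% of all genes rose. Of the 18 genes of growth signalling 3 rose and 4 fell, among them Rptor, the scaffold of mTOR complex 1 (2.80 ± 0.39, edgeR adjusted p = 0.00010), and Mxi1, an antagonist of MYC (-1.31 ± 0.27, edgeR adjusted p = 0.0029). Eif5a rose (1.39 ± 0.23) and Eif3f fell (-1.04 ± 0.26). In WT, Rptor rose as 1 of the 18 (1.51 ± 0.38, edgeR adjusted p = 0.029), and 0 of the 35 biogenesis factors were called, with 0.58 ± 0.26 for Nop56.

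Markers of other cell types moved in the same comparisons. In CD101neg cells of CGD against WT, 6 of 8 tested B cell markers fell, with a summed level of 655 to 711 CPM in CGD and 663 to 1248 in WT, and Pax5 was at 0 in all 3 CGD libraries. Of 10 markers of monocytes and interstitial macrophages 8 fell (595 to 884 against 747 to 875 CPM). Of 8 alveolar macrophage markers 3 fell and 1 rose, while their summed level was higher in CGD (1560 to 2584 against 404 to 647 CPM). Of 7 dendritic cell markers 2 fell, and 1 fell of 9 markers of T and NK cells, of 3 of eosinophils and of 5 of fibroblasts. Of 5 epithelial, 4 endothelial and 10 neutrophil markers 0 were called. In CD101pos cells, where no member was called between genotypes, 5 of the 8 B cell markers were lower in CGD, although their sum was 663 to 869 CPM there and 435 to 930 in WT. In those cells 5 of 8 alveolar macrophage markers rose and 0 fell (2248 to 2718 against 361 to 640 CPM), and 4 of 10 monocyte and interstitial macrophage markers rose and 1 fell. In both zymosan comparisons 6 of the 8 B cell markers fell, from 1344 to 1717 CPM in WT naive to 435 to 930 in WT CD101pos libraries. There 6 of 8 alveolar macrophage markers rose in WT and 5 in CGD, and of the 10 monocyte and interstitial macrophage markers 4 rose in WT, while 5 rose and 2 fell in CGD. Between the subsets of CGD, 5 of 8 alveolar macrophage and 6 of 10 monocyte and interstitial macrophage markers were lower in CD101neg cells and 0 of the B cell markers were called. The part of these cells in the members' values was not tested.

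Reads of these genes are hard to place. Of the 91 members, 87 had at least one 50-base stretch of their longest coding transcript in transcripts of another gene, and in 42 over 50% of the stretches were shared (median 47.4%). For called members the share was 93.8% in Rpl5, 86.7% in Rps18, 80.3% in Rpl13, 85.5% in Rpl36a and 85.6% in Rpl3, and 49.3% in Rpl14. In M21, 39 members share exon bases with another gene. Rpl5 overlaps Fam69a on the opposite strand by 953 bases and Rpl35 overlaps Wdr38 by 821, and as the authors' strand setting is not known, their reads cannot be told apart. The 234 rows named as pseudogenes of members held 0.0187% to 0.0737% of all reads.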

How the data were processed

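RNA sequencing counts of 18 libraries in 6 groups of 3 were used. Per the submitters' processing notes, the authors used STAR 2.5.1a, Subread and featureCounts 1.4.6-p5, and per the labels' protocols libraries were made from total RNA with the SMARTer kit. Per the deposited table, values are whole-number counts for each gene. Its build, annotation and strand were not given in the sources used here. The table had 40757 lines, of which 276 repeated a gene ID and were counted once. No sample column was left out.

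Groups were compared with edgeR 4.0.16 (R 4.3.3) by the quasi-likelihood test in 1 fit of all libraries (TMM, filterByExpr, 12 residual degrees of freedom, common biological coefficient of variation 33.0%), with Benjamini-Hochberg adjustment over 16575 genes and a threshold of 0.05. The SE is the log2 fold change over the square root of F. The fit was tested on simulated data. Alternatives were DESeq2 1.42.0, RLE factors, library size alone, no filter, protein-coding genes alone, only the groups compared, replicate blocks and each library left out. Exact tests used scipy 1.17.1.

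The members, lists and alternatives were chosen with earlier results of these data known. Named members are up to 8 called in each direction per comparison, the stalk proteins, Rpsa, Rps6, Rps19, Rpl5, Rpl11, copies with their parents and the 5 most and 5 least abundant, and of other lists the called genes with the lowest p, up to 3. Rpl4, Rpl10, Rps3a1, Rps29, Rpl32 beyond that number and the remaining called members were named after their values were seen. A few members are counted but not reported here by name. Sequences are from RefSeq (GRCm38.p6) and exon lengths from GENCODE M21. Same-numbered WT CD101pos and CD101neg libraries deviated together (correlations across genes of 0.487, 0.425 and 0.312), which meets the criterion for pairs. The results given are from the fit without a block, and the blocked values stand beside the subset and interaction results.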

Additional observations from a re-analysis of the deposited data

Results flagged for a closer look

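Some members separated the libraries in opposite directions in the 2 groups of one contrast. In each the interaction was the test of the difference, and in the fit without a replicate block none passed an adjusted p of 0.05 in edgeR. With the block by title, Rpl3 (-1.06, edgeR adjusted p = 0.00055) and Rpl4 (-0.69, edgeR adjusted p = 0.010) passed. That block also pairs the CGD libraries, which did not meet the criterion for pairs. Rpl3 was higher in all CGD CD101pos libraries and lower in all CGD CD101neg libraries than in WT (interaction -1.03, adjusted p = 0.063). Rpl4 did the same and was also lower in CD101neg than in CD101pos libraries of CGD but higher in WT (interaction -0.67, adjusted p = 0.23). Rpl13 and Rps20 separated the subsets in the same opposite way (interactions of -0.52 and -0.53, adjusted p = 0.30 and 0.31). Rpl36a-ps1, at 0.224 to 1.24 CPM, was higher in CGD than in WT in CD101pos cells after zymosan and lower in naive cells (interaction with zymosan 1.23, adjusted p = 0.50). How many of all tested genes separated in opposite directions was not counted. Separation downward alone was frequent among all genes. It was found for 15.3% of them between genotypes in CD101neg cells and for 14.4% between the CGD subsets.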

How the results depend on the processing

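The count of called members was recomputed under every alternative. The share of all genes called changed between these fits as well. For CGD against WT in CD101neg cells 2.71% to 21.55% of all genes fell, depending on the fit. For CGD against WT in CD101neg cells the main count of 15 became 9 with RLE factors, 75 by library size alone, 8 with protein-coding genes alone and 0 in a fit of only the groups compared, and leaving out 1 library gave 3 to 24. For the CGD subsets 7 became 36 by library size alone, where 7.02% of all genes fell, and 0 to 12 with 1 library left out. For zymosan in CGD 9 became 55 by library size alone and 4 in a fit of only the groups compared (0 to 37 with 1 library left out). Of all genes 12.19% fell by library size alone and 5.88% with only the groups compared. For zymosan in WT 1 became 2 in DESeq2, 30 by library size alone, and 0 without the filter or in a fit of only the groups compared (0 to 1). Of all genes 2.13% fell in DESeq2 and 3.72% by library size alone. The interaction with subset went from 0 to 4 in DESeq2, 1 without the filter (Rpl3) and 6 by library size alone (0 to 7). Of all genes 2.36% were called lower in DESeq2, 1.00% without the filter and 0.983% by library size alone. For CGD against WT in CD101pos cells leaving out 1 library gave 0 to 2. The cause of these shifts was not tested, beyond fewer libraries in some fits. The CGD to WT ratio of the members' share of reads in CD101neg cells, 0.550, lay between 0.543 and 0.588 under the 4 other denominators or member sets, of which 1 (without Rps9) was chosen after seeing the data, and between 0.514 and 0.570 with 1 library left out. On other scales the ratio of group means was nearer to 1. It was 0.771 for summed TMM-scaled CPM, in which the library total is corrected by the TMM factor. As ratios within a library it was 0.760 per mitochondrial ribosomal protein read and 0.617 per initiation factor read. The summed TMM-scaled CPM of the initiation factors was itself higher in CGD. Singly, of the 29 factors 0 were called higher and 1 lower, with a median log2 fold change of -0.13.

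With the replicate number as a block by title, WT subsets gave 1 call in place of 0 and the interaction 12 in place of 0. All of these were lower, where 5.98% and 8.16% of all genes fell. The CGD subsets gave 23 in place of 7, of which 22 were lower and 1 (Rpl10-ps3) higher. Calls rose among all genes too in that fit, in which 2069 of 15791 genes (13.1%) fell and 1855 rose between the CGD subsets. In CGD the same-numbered libraries had correlations of 0.236, 0.0245 and 0.260, too low in 1 pair to call them pairs, although each correlated best with its own number. A replicate block over all groups changed no count by over 1.5 times.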
